A study of Mus musculus with 14 samples.

Results

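Sensory neurons of the dorsal root ganglion (DRG) switch on a program of injury and regeneration genes when their axons are cut, and 9 genes of this program were followed in bulk RNA-seq of mouse plexiform neurofibromas (PNs). The genes were *Atf3*, *Sox11*, *Gap43*, *Sprr1a*, *Gal*, *Npy*, *Vip*, *Ecel1*, and *Gadd45a*. They were taken by gene symbol from the table of raw read counts, where all 9 were found among 24062 genes. An uninjured ganglion holds little of most of these transcripts, with *Gap43* the main exception in some neuron classes. After injury, transcription factors such as ATF3, SOX11, and JUN are induced in the neuron, growth-associated proteins such as GAP43 and SPRR1A follow, and the neurons change their peptides toward galanin, neuropeptide Y, and VIP. Several of the genes also respond to stress or injury in cells other than neurons, including Schwann cells (SCs) and epithelia.

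The 14 libraries were 3 control DRGs with their nerves, from mice of genotype *Nf1fl/fl*, and 11 PNs from mice of genotype *DhhCre;Nf1fl/fl*. Of the PNs, 5 were slow growing and 6 were fast growing, as set by MRI from the change in tumor volume over 2 months (under 5 mm3 or above 35 mm3). All mice were on a mixed C57BL/6, I-129, and FVBN background, none received a drug, and all carried the floxed *Nf1* alleles, the controls included. The study's methods give an age of 9 months, and a legend in the study gives 7 months for these PNs. Cre driven by *Dhh* removes *Nf1* in the SC lineage, so neurons inside a PN are not the targeted cells. A PN was sequenced whole, and in such bulk tissue fewer cells of a type and less RNA per cell cannot be told apart. Libraries are named by the numbers in their labels: control DRG3, DRG4, and DRG5, slow-growing 1079, 1198A, 1202, 1203, and 1206, and fast-growing 1053, 1071, 1179, 1191, 1214, and 1216. Sex and batch were not given per library, and nothing beyond these separate numbers describes the replicates, so each p-value measures only the spread between these libraries.

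Between 9596773 and 17594164 reads were counted on genes per library. All levels below are CPM (reads of a gene scaled by library size) after TMM scaling, in which a count of 3 equals 0.166 to 0.317 CPM depending on the library. The gene *Nf1* itself stood at 131 to 229 CPM in controls and 224 to 293 CPM in PNs, and was called higher in PNs versus controls (log2 fold change 0.54, SE 0.16, edgeR adjusted p = 0.0215). Gene-level counts pool the floxed exons with the others and all cell types, so they do not check the deletion. Sensory neuron markers were present in controls and PNs alike, with one exception. A score over 23 such markers, the mean log2(CPM + 1), was 5.51 to 7.03 in controls, 6.01 to 8.35 in slow-growing PNs, and 1.72 to 7.67 across the fast-growing PNs. The score of 1.72 belonged to fast-growing PN 1191, where 21 of the 23 markers were lower than in every other library. Skeletal muscle and fat transcripts were more abundant in controls. The 12 muscle markers summed to 3738 to 15297 CPM in controls and 17.5 to 3427 CPM in PNs, and the 10 fat markers to 3841 to 5861 CPM and 8.78 to 2969 CPM.

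Most of the 9 genes were not called between PNs and controls, and neither were most of all genes tested. Among the 7 members with enough counts to test for all PNs versus controls, edgeR's quasi-likelihood test called 1, *Atf3*, which was lower. Of all 16283 genes tested in that comparison, 26.3% were called. No tested member placed every PN on the same side of every control, as 17.7% of all genes did. For slow-growing PNs versus controls, 0 of 6 tested members were called by edgeR, against 11.3% of 15714 genes. At an unadjusted p under 0.05 the count was 2, against 4765 of all 15714 genes. DESeq2 and limma each called 0 members, against 3542 of 17901 genes by DESeq2 and 1844 of 15714 by limma. No member separated the groups there, against 23.4% of genes. For fast-growing PNs versus controls, 2 of 7 were called, *Sprr1a* and *Gadd45a*, both higher, against 31.4% of 16037 genes. Only *Gadd45a* put every fast-growing PN above every control, against 32.5% of genes separated in either direction. Between fast- and slow-growing PNs, 0 of 7 were called by edgeR, against 1.27% of 15465 genes, and none separated the groups, against 3.01%. At an unadjusted p under 0.05 the count was 3 (*Sprr1a*, *Npy*, and *Gadd45a*), against 3155 of all 15465 genes. DESeq2 called 1 member (*Sprr1a*) and limma 0, against 1592 of 17336 genes by DESeq2 and 34 of 15465 by limma. The comparisons with controls share the same 3 control libraries and are not independent of each other. The median log2 fold change of the tested members was 0.69 in all PNs, 0.62 in slow-growing PNs, and 0.78 across the fast-growing PNs, each against controls, and 0.24 in fast- versus slow-growing PNs. The medians over all tested genes in the same order were 0.10, 0.04, 0.02, and -0.03.

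**Figure D1:**
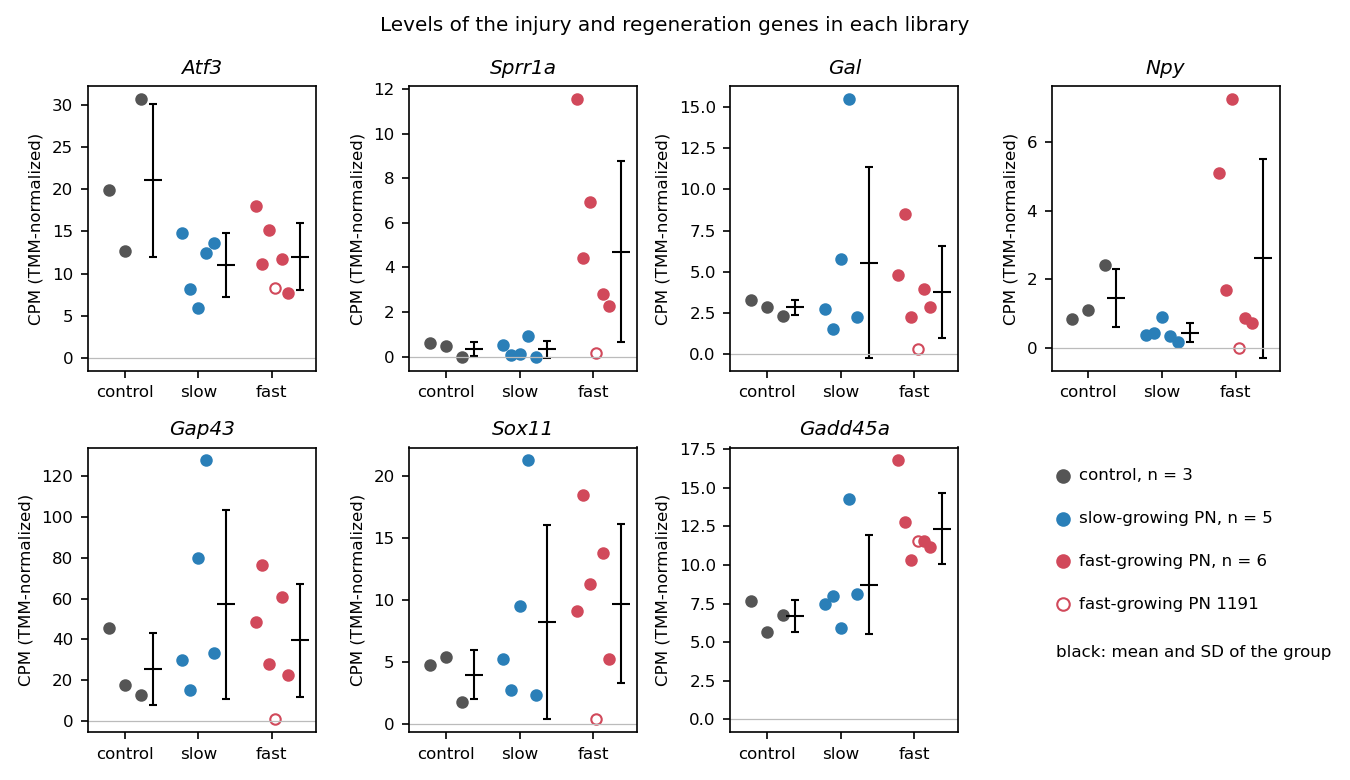
Level of the 7 members with enough reads to test in every library, as CPM after TMM normalization on linear axes, with 1 point per library and the group mean and SD in black. *Sprr1a* sat between 2.28 and 11.6 CPM in 5 of 6 fast-growing PNs and under 1 CPM in every control and slow-growing PN, and the open point, PN 1191, was lowest for *Gap43*, *Sox11*, *Gal*, and *Npy*.

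The transcription factors among the members were *Atf3* and *Sox11*. *Atf3* (chr1:191170296-191218039, minus strand, mm10, GENCODE vM21, protein coding) encodes a stress-induced factor of the ATF/CREB family that is widely used to mark injured sensory neurons. Controls held 19.9, 12.7, and 30.7 CPM of *Atf3* in DRG3, DRG4, and DRG5. Slow-growing PNs held 14.8, 8.19, 5.89, 12.4, and 13.7 CPM (in the order 1079, 1198A, 1202, 1203, and 1206), and fast-growing PNs ranged from 7.65 to 18.0 CPM with a median of 11.5. All 11 PNs lay below DRG3 and DRG5, but DRG4 lay inside the range of both PN groups. The means were 21.1 ± 9.09 CPM in controls (SD, n = 3), 11 ± 3.80 in slow-growing PNs (n = 5), and 12.0 ± 3.99 across the fast-growing PNs (n = 6).

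*Atf3* fell by 0.87 on the log2 scale in PNs versus controls (SE 0.30, 95% interval -1.51 to -0.22, edgeR adjusted p = 0.0473), a 0.548-fold level. The 8 libraries whose omission ended this call were DRG5 (-0.49, adjusted p = 0.386), DRG3 (0.0826), 1216 (0.0650), 1198A (0.0646), 1071 (0.0613), 1191 (0.0558), 1214 (0.0533), and 1203 (0.0505). It was also lost with limma (adjusted p = 0.0622) and with no filter on low counts (0.0593). Against controls, the log2 fold change of *Atf3* was -0.97 (SE 0.37, adjusted p = 0.119) in slow-growing PNs and -0.87 (SE 0.33, adjusted p = 0.0744) in fast-growing PNs. The latter passed the threshold without DRG4 (-1.13, adjusted p = 0.0435) or without 1053 (-1.03, adjusted p = 0.0470). Fast- and slow-growing PNs differed by 0.12 (95% interval -0.51 to 0.76, adjusted p = 0.825). A list of 10 immediate early genes, which respond quickly to tissue handling as well as to other stimuli, was lower in PNs too: 7 of the 10 fell versus controls and 0 rose, against 26.3% of all genes called. Their summed level was 436 to 926 CPM in controls, 86.5 to 300.1 in slow-growing PNs, and 182 to 379 across the fast-growing PNs, and its part in the *Atf3* result was not tested. With muscle and fat scores as covariates the *Atf3* difference was -1.22 (adjusted p = 0.292), in a fit that called 525 of 16283 genes. Both scores were lower in every PN than in every control, so that fit cannot separate muscle and fat content from the group.

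The stretch upstream of *Atf3* is shown because this was the only member called between all PNs and controls. The bases, from RefSeq (GRCm38), run from 250 to 8 bases before the transcription start of the RefSeq model (chr1:191183341-191183583, minus strand, 243 bases). Capitals mark matches to the GC box letters GGGCGG on either strand, of which there are 5, a pair of them overlapping.
Atf3: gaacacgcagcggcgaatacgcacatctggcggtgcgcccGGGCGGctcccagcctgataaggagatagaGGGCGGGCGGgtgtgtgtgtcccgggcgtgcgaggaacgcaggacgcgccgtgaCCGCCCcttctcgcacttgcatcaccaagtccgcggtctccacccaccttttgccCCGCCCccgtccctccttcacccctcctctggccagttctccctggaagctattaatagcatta
Neither the AP-1 letters TGANTCA nor the CRE letters TGACGTCA occur in the 250 bases upstream. Of 32851 RefSeq windows of this length, 32.7% hold the GC box letters, 6.75% TGANTCA, and 1.55% TGACGTCA, each on either strand. Such a match describes letters and is not a measured binding site.

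*Sox11* (chr12:27334264-27342574, minus strand, a single exon) encodes a SoxC transcription factor that promotes axon growth. It stood at 4.75, 5.45, and 1.79 CPM in DRG3, DRG4, and DRG5, and at 5.24, 2.78, 9.54, 21.3, and 2.31 CPM in the slow-growing PNs in the order above. Fast-growing PNs ranged from 0.378 to 18.5 CPM with a median of 10.2. The highest library was slow-growing 1203, the lowest was fast-growing 1191, and all 3 groups overlapped. The log2 fold change was 1.17 (SE 0.83, adjusted p = 0.318) in PNs versus controls, 0.98 (SE 0.76, adjusted p = 0.396) in slow-growing PNs versus controls, and 0.24 between fast- and slow-growing PNs (95% interval -1.40 to 1.89, adjusted p = 0.872). For fast-growing PNs versus controls it was 1.22 (SE 0.84, adjusted p = 0.309), and without 1191 it was 1.47 and passed the threshold (adjusted p = 0.0385).

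Of the growth-associated proteins, GAP43 lines the inner membrane of the growth cone and is also made by some SCs. *Gap43* (chr16:42248442-42340651, minus strand) was the most abundant member per length in every group, at 17.9, 40.3, and 27.8 CPM per kb of its longest transcript in controls, slow-growing PNs, and fast-growing PNs. Controls held 45.7, 17.7, and 12.9 CPM of *Gap43*, and slow-growing PNs 29.8, 15, 80.1, 128, and 33.2 CPM. Fast-growing PNs ran from 0.756 CPM in 1191 to 76.4 CPM in 1071, with a median of 38.2. The ranges of all 3 groups overlapped, with means of 25.4 ± 17.7 CPM in controls, 57.2 ± 46.4 in slow-growing PNs, and 39.5 ± 27.6 across the fast-growing PNs (SD). No difference passed the test: the log2 fold change was 0.90 (SE 0.87, adjusted p = 0.469) for PNs versus controls, 1.12 (adjusted p = 0.309) for the slow- and 0.58 (adjusted p = 0.675) for the fast-growing PNs alone, and -0.53 (95% interval -2.26 to 1.19, adjusted p = 0.712) for fast- versus slow-growing PNs. Leaving out 1 library gave 0.58 to 1.64 in all, 0.63 to 1.84 in slow-growing, and 0.30 to 1.28 in fast-growing PNs versus controls. Between growth groups it gave -0.79 to -0.0013, and none of these passed the edgeR test.

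*Sprr1a* (chr3:92483952-92485895, minus strand, 2 exons) encodes a small proline-rich protein first known from the cornified envelope of keratinocytes, which injured sensory neurons also make and which promotes axon outgrowth. It had the largest fold change of the tested members in fast-growing PNs. DRG3, DRG4, and DRG5 held 7, 5, and 0 reads of it (0.604, 0.462, and 0 CPM). Slow-growing PNs held 7, 1, 1, 10, and 0 reads (0.532, 0.0751, 0.102, 0.912, and 0 CPM). Fast-growing 1053, 1071, 1179, 1191, 1214, and 1216 held 209, 65, 95, 2, 38, and 34 reads (11.6, 4.42, 6.95, 0.151, 2.81, and 2.28 CPM). Thus 5 of 6 fast-growing PNs lay above every control and every slow-growing PN, and 1191 lay among them.

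The level of *Sprr1a* averaged 0.355 ± 0.316 CPM in controls, 0.324 ± 0.389 in slow-growing PNs, and 4.69 ± 4.06 across the fast-growing PNs (SD; n = 3, 5, and 6). Against controls, it rose in fast-growing PNs by a log2 fold change of 3.61 (SE 1.21, 95% interval 0.89 to 6.33, edgeR adjusted p = 0.0471), or 12.2-fold. Over all 11 PNs versus controls the log2 fold change was 2.88 (SE 1.64, adjusted p = 0.213). The call in fast-growing PNs was lost on leaving out any of 8 of the 9 libraries: DRG5 (adjusted p = 0.134), DRG4 (0.121), 1053 (0.0797), DRG3 (0.0781), 1179 (0.0744), 1071 (0.0628), 1214 (0.0608), or 1216 (0.0576). Leaving out 1191 moved it to 3.86 (adjusted p = 0.00923). limma gave 3.37 (adjusted p = 0.346). With muscle and fat scores as covariates edgeR gave -0.16 (adjusted p = 0.996), in a fit that called 0 of 16037 genes. Both scores were higher in every control than in every fast-growing PN (muscle 8.03 to 10.04 against 2.53 to 7.22, fat 7.87 to 8.13 against 0.706 to 3.55). That fit therefore cannot separate muscle and fat content from the group.

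Fast- and slow-growing PNs differed by a log2 fold change of 3.81 in *Sprr1a* (SE 1.0, 95% interval 1.62 to 5.99, 14-fold), with an unadjusted edgeR p of 0.00265 and an adjusted p of 0.0687, above the threshold. Leaving out 1 library gave 3.31 to 4.58 (edgeR adjusted p from 0.0519 to 0.172). DESeq2 gave 3.84 (adjusted p = 0.00189). When the sensory neuron score was added as a covariate, edgeR gave 4.54 (adjusted p = 0.0281), in a fit that called 2.90% of all genes. With that covariate and 1191 left out it gave 4.35 (adjusted p = 0.00972), in a fit that called 10.5%. With muscle and fat scores as covariates it gave 3.06 (adjusted p = 0.385), in a fit that called 0 of 15465 genes. Markers of other cells were read between the growth groups too. Of all 15465 genes tested there, edgeR called 1.27%, and 3155 had an unadjusted p under 0.05. The median log2 fold change, fast- versus slow-growing, was -3.69 for the 9 tested fat markers, 1.63 for 7 macrophage markers, 1.15 for 6 fibroblast markers, and 0.19 for 17 SC markers. In that order edgeR called 0, 0, 0, and 1 of them (8, 5, 6, and 10 at an unadjusted p under 0.05), DESeq2 9, 4, 4, and 8, and limma 0, 0, 0, and 1. Over all genes DESeq2 called 1592 of 17336 there, and limma 34 of 15465. Beyond the covariate values, the part of these markers in the *Sprr1a* difference was not tested. For slow-growing PNs versus controls the counts were below the filter, and without a filter the log2 fold change was -0.17 (SE 1.19, adjusted p = 0.935). Since keratinocytes also make SPRR1A, their markers were read beside it. The 8 keratinocyte genes summed to 5.17 to 7.69 CPM in controls, 3.23 to 7.14 in slow-growing PNs, and 3.09 to 6.28 across the fast-growing PNs. The members of that list differed: the control sum came mostly from *Dsp*, which averaged 3.74 CPM in controls and 0.483 in fast-growing PNs, whereas *Krt10* averaged 1.88 CPM in controls, 2.64 in slow-growing, and 3.07 in fast-growing PNs. *Krt1* averaged 0.0992, 0.438, and 0.448 CPM in the same order. *Krt5*, *Krt14*, *Krt15*, *Dsg3*, and *Lor* each stayed under 1 CPM in every library, *Krt5* reaching 0.911 and *Krt14* 0.422, and *Krt15* was at 0 in all PNs. The part of keratinocyte transcripts in the *Sprr1a* values was not tested.

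The upstream stretch of *Sprr1a* is printed because this gene had the largest difference between the growth groups. It covers 250 to 15 bases before the RefSeq start (chr3:92485896-92486131, minus strand, GRCm38, 236 bases). Capitals mark both matches to the AP-1 letters TGANTCA, which start 146 and 116 bases before the start site, and the TATA box letters TATAAA at 43 bases.
Sprr1a: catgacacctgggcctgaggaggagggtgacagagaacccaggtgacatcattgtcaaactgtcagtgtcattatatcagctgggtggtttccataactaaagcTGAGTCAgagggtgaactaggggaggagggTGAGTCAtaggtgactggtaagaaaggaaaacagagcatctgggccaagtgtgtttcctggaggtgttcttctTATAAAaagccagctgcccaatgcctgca
Among the 8 members with such a RefSeq window (*Gap43* had none), *Sprr1a* was the only one with TGANTCA in the 250 bases, against 6.75% of all windows. TATAAA on the strand of the gene occurs in 7.59% of windows.

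The injury peptides gave low and uneven signals. *Gal* (chr19:3409915-3414544, minus strand) encodes galanin, a peptide that injured sensory neurons strongly induce. It measured 3.28, 2.86, and 2.32 CPM in controls and 2.73, 1.5, 5.79, 15.5, and 2.22 CPM in slow-growing PNs. Among fast-growing PNs it ran from 0.302 CPM in 1191 to 8.50 CPM in 1071 with a median of 3.37. The 3 controls lay within the range of both PN groups. Its log2 fold change was 0.69 (SE 0.76, adjusted p = 0.534) in PNs versus controls, 0.91 (adjusted p = 0.419) for the slow- and 0.35 (adjusted p = 0.744) for the fast-growing PNs alone, and -0.55 (95% interval -2.13 to 1.03, adjusted p = 0.678) in fast- versus slow-growing PNs.

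*Npy* (chr6:49822710-49829507, plus strand) encodes neuropeptide Y, made by sympathetic neurons at rest and by large sensory neurons after injury. It was at 0.864, 1.11, and 2.43 CPM in controls and at 0.38, 0.451, 0.914, 0.365, and 0.193 CPM in slow-growing PNs. In fast-growing 1053, 1071, 1179, 1191, 1214, and 1216 it was at 5.09, 1.70, 7.24, 0, 0.887, and 0.738 CPM. Only 1 slow-growing PN (1202) exceeded the lowest control, while 1053 and 1179 exceeded every control. In slow-growing PNs versus controls its log2 fold change was -1.69 (SE 0.56, 95% interval -2.97 to -0.41), which did not pass the adjusted test (adjusted p = 0.0881). It was 0.18 (SE 1.10, adjusted p = 0.922) in all PNs and 0.78 (SE 1.13, adjusted p = 0.644) in fast-growing PNs, each versus controls. In fast- versus slow-growing PNs it was 2.49 (SE 0.96, 95% interval 0.39 to 4.60, adjusted p = 0.173). With the sensory neuron score as a covariate and 1191 left out it was 2.64 (adjusted p = 0.0492), in a fit that called 10.5% of all genes. DESeq2, limma, and the fit with that covariate and 1191 kept did not call it. Of the 9 sympathetic neuron markers read beside *Npy*, 6 could be tested in slow-growing PNs versus controls and 3 between the growth groups, and edgeR called 0 in either (0 at an unadjusted p under 0.05, with DESeq2 calling 0 and 1 and limma 0). Of all genes, edgeR called 11.3% and 1.27% in these comparisons. There DESeq2 called 3542 of 17901 and 1592 of 17336 genes, and limma 1844 of 15714 and 34 of 15465. The part of these markers in the *Npy* values was not tested.

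*Vip* (chr10:5639218-5647617, plus strand) encodes vasoactive intestinal peptide, another peptide of injured sensory neurons. It was near absent from the counts: 1 read each in fast-growing 1053 and 1179, and 0 in the other 12 libraries, where a count of 0 allows up to 3 reads. *Ecel1* (chr1:87147655-87156521, minus strand) encodes a neuronal endopeptidase-like enzyme whose transcript rises after nerve injury. It had 53 reads in all, with 3, 1, and 1 in controls, 2, 5, 3, 3, and 2 in slow-growing PNs, and 8, 10, 11, 0, 0, and 4 across the fast-growing PNs. Neither gene passed the filter on low counts in any comparison, so the main fits did not test them, and the low counts limit what their values can show. Tested without a filter, *Ecel1* gave 0.49 between fast- and slow-growing PNs (adjusted p = 0.770) and 1.02 between PNs and controls (adjusted p = 0.473).

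*Gadd45a* (chr6:67035096-67037457, minus strand) encodes a stress sensor of growth arrest and DNA damage that injured sensory neurons, and many other stressed cells, induce. Controls held 7.69, 5.63, and 6.76 CPM. Slow-growing PNs held 7.44, 7.96, 5.89, 14.2, and 8.10 CPM, and fast-growing PNs 16.8, 12.8, 10.3, 11.6, 11.5, and 11.1 CPM. Every fast-growing PN lay above every control, and slow-growing PNs overlapped both groups, with 1203 apart from the other 4. Means were 6.69 ± 1.03, 8.72 ± 3.20, and 12.3 ± 2.30 CPM (± SD, with n of 3, 5, and 6).

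In fast-growing PNs versus controls *Gadd45a* rose by a log2 fold change of 0.83 (SE 0.20, 95% interval 0.38 to 1.28, edgeR adjusted p = 0.0114), or 1.78-fold. Without DRG4 it was 0.72 (adjusted p = 0.0551). With muscle and fat scores as covariates it was 1.06 (adjusted p = 0.801), in a fit that called 0 of 16037 genes. Since both scores separated the groups, that fit cannot tell their part from the group difference. The log2 fold change of *Gadd45a* was 0.34 in slow-growing PNs versus controls (95% interval -0.35 to 1.03, adjusted p = 0.462). In all PNs versus controls it was 0.68 (SE 0.28, adjusted p = 0.0875). Fast- and slow-growing PNs differed by 0.50 (SE 0.22, 95% interval 0.01 to 0.99, adjusted p = 0.235), and without slow-growing 1203 by 0.75 (adjusted p = 0.0444). Its exons overlap those of *E230016M11Rik* on the opposite strand. Counting by strand was not stated, so reads from the pair cannot be told apart. *E230016M11Rik* itself was at 1.39 to 3.59 CPM in controls, 4.47 to 6.38 in slow-growing PNs, and 3.6 to 5.92 across the fast-growing PNs, with a log2 fold change of 0.75 in fast-growing PNs versus controls (SE 0.33, adjusted p = 0.116) and of 0.96 in all PNs (SE 0.28, adjusted p = 0.0229).

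The bases upstream of *Gadd45a* are given as those of the only member that separated every fast-growing PN from every control. They cover 250 to 51 bases before the RefSeq start (chr6:67037458-67037657, minus strand, GRCm38, 200 bases), and the capitals mark the single GC box match, 163 bases before the start, read here on the opposite strand as CCGCCC.
Gadd45a: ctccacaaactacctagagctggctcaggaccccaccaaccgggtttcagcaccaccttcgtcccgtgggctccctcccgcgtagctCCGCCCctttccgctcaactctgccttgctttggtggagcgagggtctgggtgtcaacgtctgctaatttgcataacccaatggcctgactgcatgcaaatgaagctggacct
Neither TGANTCA, TGACGTCA, nor TATAAA occurs in its 250 upstream bases.

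**Figure D2:**
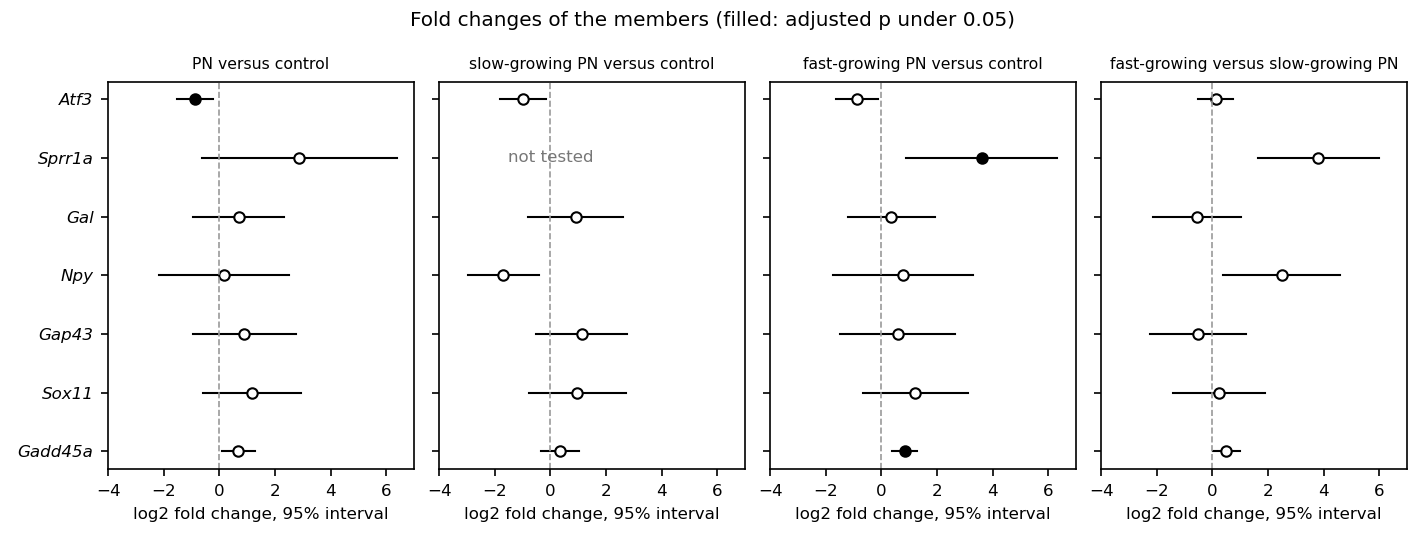
Log2 fold change of each tested member in the 4 comparisons, with points at the edgeR estimate (filled at an adjusted p under 0.05) and bars at the 95% interval. *Atf3* lay below 0 in every comparison with controls (-0.87 in all PNs), *Gadd45a* was 0.83 in fast-growing PNs versus controls, and the intervals of *Gal*, *Gap43*, and *Sox11* crossed 0 throughout.

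Levels were also ordered per length, as CPM per kb of the longest annotated transcript. In controls the order ran from *Gap43* (17.9) over *Atf3* (10.6), *Gadd45a* (5.47), *Gal* (3.58), *Npy* (2.59), *Sox11* (0.481), and *Sprr1a* (0.441) to *Ecel1* (0.0502) and *Vip* (0). In fast-growing PNs *Gap43* (27.8) was followed by *Gadd45a* (10.1), *Atf3* (6.05), *Sprr1a* (5.83), *Gal* (4.78), and *Npy* (4.61), with *Sox11* at 1.17, *Ecel1* at 0.121, and *Vip* at 0.00845. The order in slow-growing PNs was *Gap43* (40.3), *Gadd45a* (7.13), *Gal* (7.04), *Atf3* (5.54), *Sox11* (0.990), *Npy* (0.813), *Sprr1a* (0.402), *Ecel1* (0.0856), and *Vip* (0). By the larger SD of each pair, the neighbors whose means lay within 1 SD of each other in controls were *Gap43* and *Atf3*, *Gal* and *Npy*, *Sox11* and *Sprr1a*, and *Sprr1a* and *Ecel1*. In slow-growing PNs they were *Gadd45a*, *Gal*, and *Atf3* in turn, and *Sox11*, *Npy*, *Sprr1a*, and *Ecel1* in turn. In fast-growing PNs they were *Gap43* and *Gadd45a*, and then *Atf3*, *Sprr1a*, *Gal*, *Npy*, and *Sox11* in turn.

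The members fell into different patterns when read against the neuron content of a PN. Over the 11 PNs, log2(CPM + 1) of *Gap43*, *Gal*, and *Sox11* rose with the sensory neuron score, while the test over the pooled PNs did not pass for *Atf3*, *Sprr1a*, *Npy*, or *Gadd45a*. The share of all genes with such a relation was not computed, so these values do not set the members apart from other genes. For *Gap43* Pearson's r was 0.981 (permutation p = 1e-05, the smallest 100000 permutations can give, adjusted over 7 relations 7.00e-05) and Spearman's rho 0.964 (permutation p = 3e-05, adjusted 0.00021). For *Gal* r was 0.866 (permutation p = 6e-05, adjusted 0.00021) and rho 0.90 (permutation p = 0.00046, adjusted 0.00161). For *Sox11* r was 0.865 (permutation p = 0.00016, adjusted 0.000373) and rho 0.836 (permutation p = 0.00234, adjusted 0.00546). Without the 2 PNs farthest from the median score, 1191 and 1203, r was 0.925 for *Gap43*, 0.902 for *Gal*, and 0.734 for *Sox11*. Within the fast-growing PNs alone (n = 6) r was 0.997, 0.937, and 0.970 in the same order. No value is given for the 5 slow-growing PNs alone, since a correlation was reported over at least 6 libraries.

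For *Sprr1a* r was 0.273 (permutation p = 0.455, rho 0.236 with permutation p = 0.484), and 0.147 without the 2 farthest PNs. *Npy* had r of 0.260 (permutation p = 0.392, rho 0.236 with permutation p = 0.485), and 0.0130 without them. *Atf3* had r of 0.247 (permutation p = 0.500, rho 0.118 with permutation p = 0.734), and -0.0892 without them. *Gadd45a* had r of 0.0129 (permutation p = 0.972, rho 0.191 with permutation p = 0.577), and 0.0847 without them. The adjusted p of these 4 lay between 0.584 and 0.972 for r and between 0.673 and 0.734 for rho. Within the fast-growing PNs r was 0.767 for *Sprr1a*, 0.531 for *Npy*, 0.487 for *Atf3*, and 0.249 for *Gadd45a*. Since the mean level of *Sprr1a* was not the same in both growth groups, though the difference did not pass the edgeR test, the values were also centered on the mean of each growth group, a step added after seeing the data, with permutation within the groups. The r of *Sprr1a* over the 11 PNs was then 0.765 (permutation p = 0.0377, adjusted over 7 relations 0.066), and without 1191 it was 0.265 (permutation p = 0.428, adjusted 0.599), so the higher value rested on that library. After centering, *Gap43*, *Sox11*, and *Gal* had r of 0.982, 0.941, and 0.867, and of 0.954, 0.932, and 0.950 without 1191. *Npy*, *Gadd45a*, and *Atf3* had r of 0.507, 0.284, and 0.310, with adjusted permutation p between 0.329 and 0.391.

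**Figure D3:**
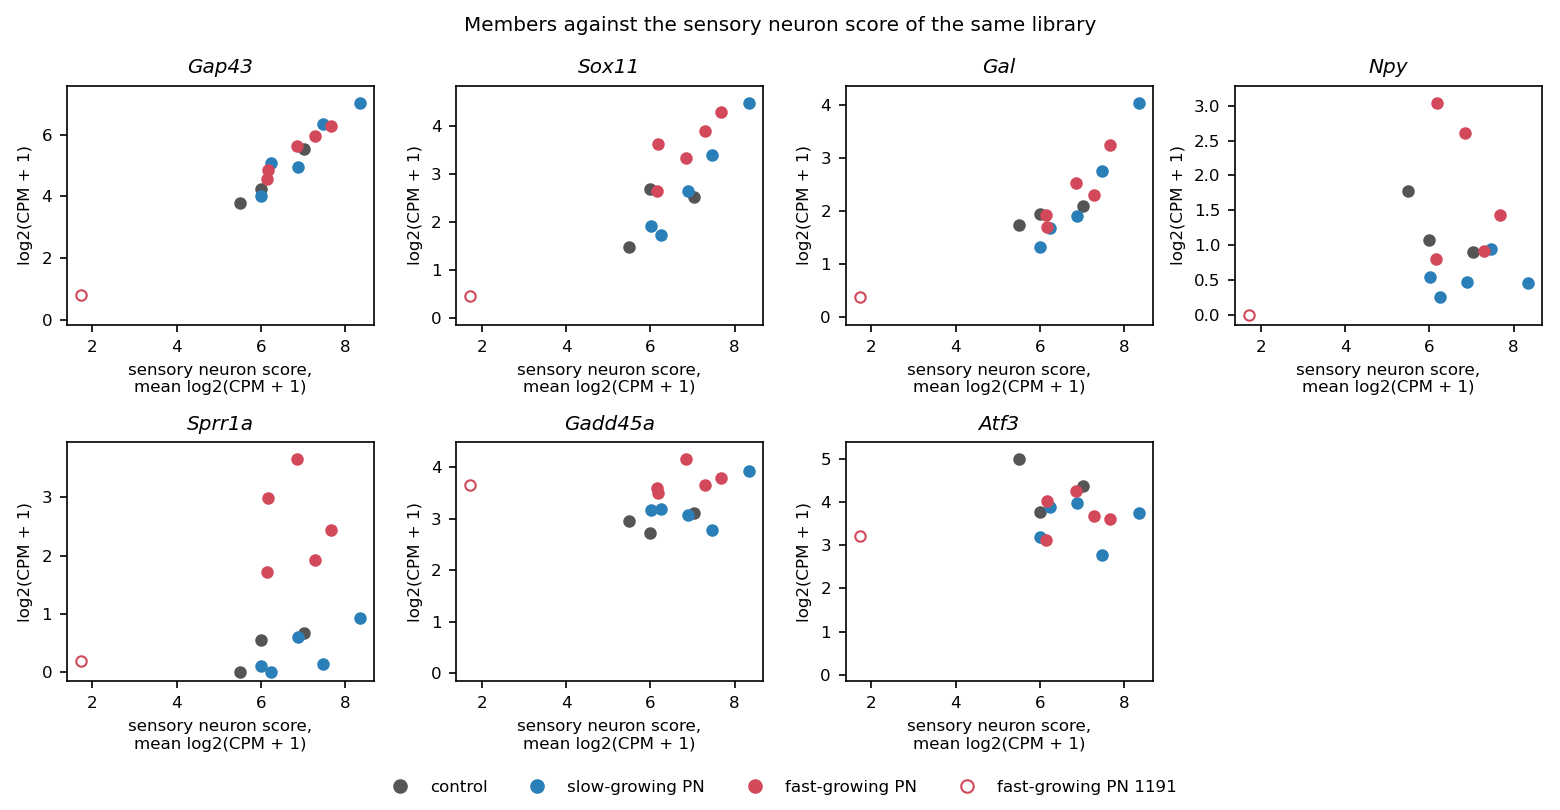
Level of the 7 tested members (log2(CPM + 1)) against the sensory neuron score (mean log2(CPM + 1) of 23 markers), with 1 point per library colored by group. *Gap43*, *Gal*, and *Sox11* climbed with the score (r = 0.981, 0.866, and 0.865 over 11 PNs), while *Gadd45a* showed no such climb (r = 0.0129). Fast-growing PN 1191 lies alone at a score of 1.72.

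In PN 1191, the library with few neuron transcripts, 5 members were far below the other fast-growing PNs, *Sprr1a* and *Npy* among them. Against the median of the other 5 fast-growing PNs its level was 0.0156 times for *Gap43*, 0.0336 times for *Sox11*, 0.0342 times for *Sprr1a*, and 0.0772 times for *Gal*, with *Npy* listed at 0 reads. It was 0.701 times for *Atf3* and 1.0 times for *Gadd45a*, so these 2 kept a level within the range of the other fast-growing PNs. With the sensory neuron score as a covariate and 1191 left out, *Sox11* was higher in fast- than in slow-growing PNs (1.05, adjusted p = 0.0303), and 3 members were called in that fit, which called 10.5% of all 15359 genes.

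The deviations of the members from their group means were compared over the 14 libraries as a description. The 3 genes that rose with the neuron score also moved together, with r of 0.925 between *Gap43* and *Sox11*, 0.908 between *Gal* and *Sox11*, and 0.892 between *Gal* and *Gap43*. Without 1191 these were 0.842, 0.866, and 0.881. *Sprr1a* had r of 0.770 with *Npy*, 0.739 with *Gap43*, 0.734 with *Sox11*, and 0.626 with *Gal*, and without 1191 of 0.612, 0.330, 0.419, and 0.349. *Atf3* had r of 0.493 with *Sprr1a* and 0.496 with *Npy*, and without 1191 of 0.440 and 0.422. For *Gadd45a* r was 0.527 with *Gal*, 0.482 with *Atf3*, and 0.410 with *Sprr1a*, and without 1191 0.596, 0.482, and 0.541. It was lower with *Gap43* (0.330), *Sox11* (0.303), and *Npy* (0.0450) over the 14 libraries. Among 15305 other genes of at least 1 CPM, the closest to *Gap43* were *Tmem151a* (0.994), *Spock2* (0.993), and *Klc2* (0.993), and the closest to *Sox11* were *Mettl7a3* (0.976), *Rgs17* (0.970), and *Mllt11* (0.969). *Gal* was nearest to *Psmb6* (0.986), *Dolpp1* (0.985), and *3110043O21Rik* (0.979). *Sprr1a* was nearest to *Fxyd7* (0.933), *Unc5c* (0.908), and *Stk19* (0.896), and *Npy* to *Sin3b* (0.826), *Mfsd12* (0.820), and *Hint2* (0.799). For *Gadd45a* they were *Zfyve1* (0.914), *Ift57* (0.904), and *Ankrd27* (0.855), and for *Atf3* *Nqo1* (0.807), *C230052I12Rik* (0.80), and *Rwdd3* (0.796). Without 1191 the values for these like genes were at least 0.980 for *Gap43*, 0.968 for *Gal*, 0.935 for *Sox11*, 0.855 for *Gadd45a*, 0.777 for *Atf3*, 0.746 for *Sprr1a*, and 0.669 for *Npy*.

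Of 20 further injury genes of sensory neurons, 18 were tested in PNs versus controls, where 1 rose and 1 fell, against 26.3% of all genes called in either direction. *Flrt3*, a cell adhesion molecule of growing axons, rose from 20.2 ± 1.70 CPM in controls to 45.4 ± 11.2 in slow-growing and 67.4 ± 9.01 across the fast-growing PNs (SD), a log2 change of 1.5 in all PNs (SE 0.25, adjusted p = 0.000704). *Fst*, which encodes the activin-binding protein follistatin, fell from 12.5 ± 0.875 CPM to 2.63 ± 2.08 and 3.39 ± 0.793 CPM, a log2 fold change of -2.04 (SE 0.35, adjusted p = 0.000809). Both passed the test in slow- and in fast-growing PNs as well, with every PN on one side of every control. *Jun*, the partner of ATF3 in the injury response, was called only in slow-growing PNs versus controls, of the 4 comparisons, where it fell by 0.94 on the log2 scale (SE 0.19, adjusted p = 0.0166). Its level was 93.0 ± 24.1 CPM in controls, 49.8 ± 6.47 in slow-growing PNs, and 73.3 ± 13.6 across the fast-growing PNs, and the fast- versus slow-growing difference of 0.55 did not pass (adjusted p = 0.0722). *Cckbr*, a cholecystokinin receptor that injured sensory neurons induce, rose in fast-growing PNs versus controls (log2 fold change 3.08, SE 0.71, adjusted p = 0.00970) from a mean of 0.119 to 1.15 CPM. In fast-growing PNs 3 of 18 rose and 1 fell, against 31.4% of all genes called. In slow-growing PNs 1 of 17 rose and 2 fell, against 11.3%. Between the growth groups 0 of 18 were called by edgeR (6 at an unadjusted p under 0.05), 4 by DESeq2, and 0 by limma. Over all genes DESeq2 called 1592 of 17336 there, and limma 34 of 15465. Of all 15465 genes tested there, edgeR called 1.27%, and 3155 had an unadjusted p under 0.05. The list medians were 0.32, 0.39, and -0.01 in all, fast-growing, and slow-growing PNs versus controls. Exons of *Fst* and *Jun* overlap those of other annotated genes, *Gm47040* and *Junos*, with which reads may be shared.

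The receptors of the injury peptides were read in the same way. Of 9 receptors for galanin, neuropeptide Y, and VIP, 6 were tested in PNs versus controls and edgeR called 0 (2 at an unadjusted p under 0.05), as did DESeq2 and limma, against 26.3% of all genes called by edgeR. In fast-growing PNs versus controls 1 of 7 tested was called, against 31.4%. *Npy1r*, the Y1 receptor, fell in fast-growing PNs versus controls by 0.78 on the log2 scale (SE 0.19, adjusted p = 0.0121), from 30.7 ± 6.58 to 18.6 ± 3.58 CPM, and every fast-growing PN lay below every control, as 32.5% of all genes separated in either direction. It stood at 25.4 ± 7.02 CPM in slow-growing PNs, where the difference from controls of -0.32 did not pass (adjusted p = 0.392). *Npy2r*, the Y2 receptor of sensory neurons, was at 2.62 ± 0.771 CPM in controls and spread from 0 to 35.8 CPM over the PNs (log2 fold change 2.01, adjusted p = 0.204). The VIP receptor genes gave log2 fold changes of -1.98 for *Vipr1* (adjusted p = 0.0667) and -0.53 for *Vipr2* (adjusted p = 0.351) in PNs versus controls.

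Of 15 close relatives of the members, 11 were tested in PNs versus controls, where 1 rose and 3 fell, against 26.3% of all genes called. *Gadd45g*, a sister of *Gadd45a*, fell in every comparison with controls, from 19.8 ± 8.54 CPM to 3.07 ± 0.642 in slow-growing and 3.08 ± 1.05 across the fast-growing PNs, a log2 change of -2.68 in all PNs (SE 0.25, adjusted p = 5.12e-06). *Gadd45b* fell by 0.95 (SE 0.34, adjusted p = 0.0498) in all PNs versus controls, where *Gadd45a* was not called. Its control libraries DRG3, DRG4, and DRG5 stood at 3.19, 13.8, and 6.23 CPM, the first of them inside the PN range of 2.48 to 5.56 CPM. *Sox12*, the SoxC relative of *Sox11*, rose from 4.53 ± 1.28 CPM to 10.3 ± 1.65 and 8.53 ± 1.63 CPM (log2 fold change 1.04, SE 0.22, adjusted p = 0.00391). *Nrgn*, which like *Gap43* encodes a calmodulin-binding protein, fell by 1.92 (SE 0.55, adjusted p = 0.0195). Between growth groups, *Marcks*, a membrane protein related in function to GAP43, was higher in fast-growing PNs (1.18, SE 0.25, adjusted p = 0.0484), at 212 ± 60.1 against 93.1 ± 30.6 CPM. *Mme*, which encodes the peptidase neprilysin of the family of ECEL1, was lower there (-1.57, SE 0.31, adjusted p = 0.0449), at 67.9 ± 19.6 against 201 ± 82.3 CPM. Of 10 relatives tested between growth groups, edgeR called these 2, DESeq2 3, and limma 0, against 1.27% of all genes by edgeR. Over all genes DESeq2 called 1592 of 17336 there, and limma 34 of 15465. *Sprr1b* averaged at most 0.0448 CPM in a group, and *Sprr2a1* was at 0.

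**Figure D4:**
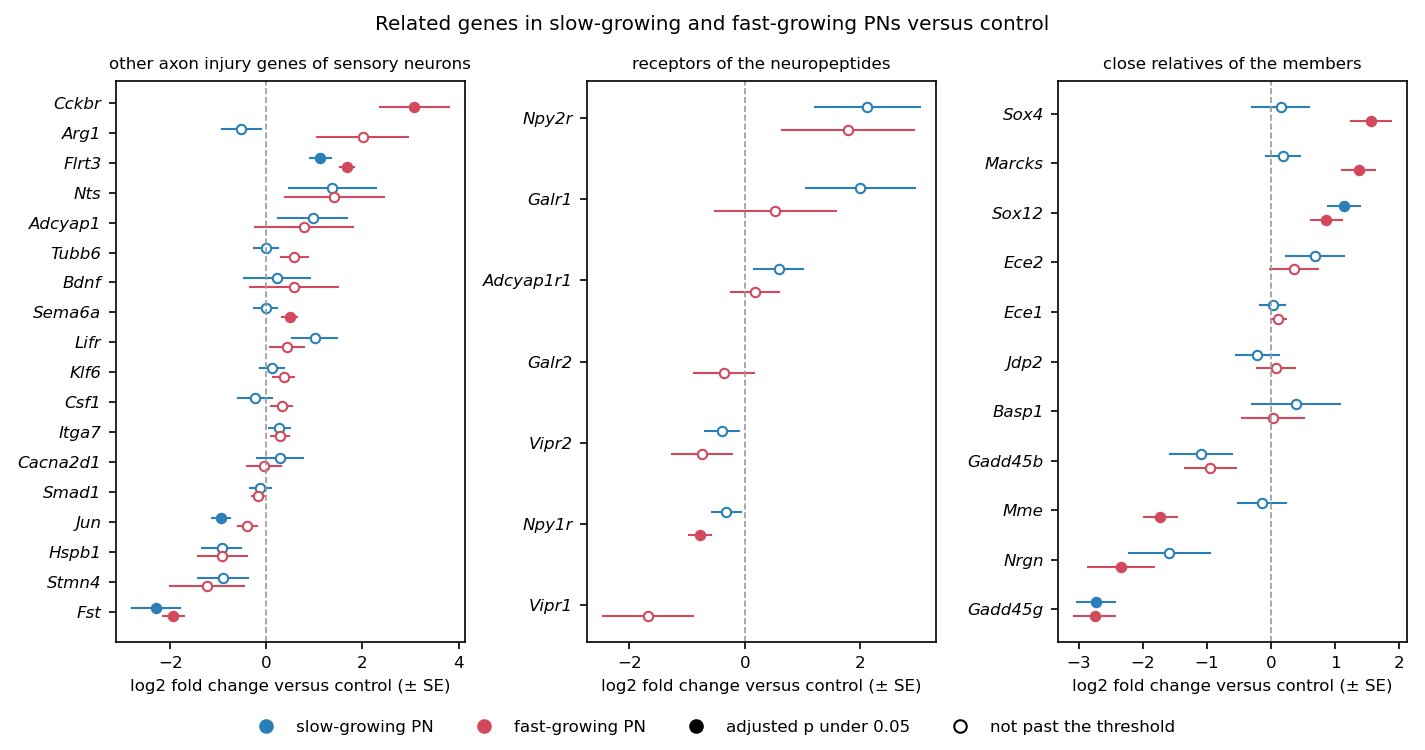
Log2 fold changes versus controls of tested genes of the injury program, the peptide receptors, and the relatives of the members, in slow-growing (blue) and fast-growing (red) PNs, with bars at ± 1 SE and filled points at an edgeR adjusted p under 0.05. *Flrt3* and *Gadd45g* lay on opposite sides of 0 (1.68 and -2.75 in fast-growing PNs), with filled points for both kinds of PN.

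The markers of cells that could hold these transcripts were counted alongside, to be read against the shares of all genes called by edgeR: 26.3% in all PNs, 11.3% for slow-growing, and 31.4% for fast-growing PNs versus controls, and 1.27% between growth groups. In the same order DESeq2 called 5245 of 18653, 3542 of 17901, 6014 of 19234, and 1592 of 17336 genes. For limma the counts were 4291 of 16283, 1844 of 15714, 4790 of 16037, and 34 of 15465. Of 23 sensory neuron markers in the table, all tested, 1 rose in PNs versus controls (*Ntrk2*, log2 fold change 1.12, SE 0.30, adjusted p = 0.0131) and 0 fell, with a list median of 0.75. *Ntrk2* was highest of the 14 libraries in PN 1191 (455 CPM), where 21 of the 23 markers were lowest, so its level did not follow the rest of the neuron list. Between fast- and slow-growing PNs edgeR called 0 of them (2 at an unadjusted p under 0.05), DESeq2 1, and limma 0, with a median of -0.62. Of 17 SC markers, 9 rose and 0 fell in PNs versus controls, with a median of 1.47, 10 rose in fast-growing PNs, and 5 rose in slow-growing PNs. Genes of the repair SC, the state SCs take after nerve injury, numbered 13, of which 11 were tested, and 2 of them, *Shh* and *Sox2*, rose in PNs versus controls (2.22 and 2.53). In fast-growing PNs 6 of the 11 rose, and in slow-growing PNs 1 of 9 tested rose (*Shh*) and 1 fell (*Jun*). DESeq2 called 6 of the repair SC genes in all PNs and 6 in fast-growing PNs versus controls, and limma 2 and 4. *Olig1* had too few reads to test, at means of 0.696, 0.204, and 0.0559 CPM in controls, slow-growing PNs, and fast-growing PNs. Between growth groups *Gdnf*, a neurotrophic factor of repair SCs, was higher in fast-growing PNs (2.82, SE 0.45, adjusted p = 0.0317), at 4.5 ± 2.32 against 0.626 ± 0.287 CPM. It was the 1 repair SC gene called there by edgeR, while DESeq2 called 3 of the 11 tested and limma 0. *Gfap*, an SC and glial filament, was higher too (2.47, SE 0.37, adjusted p = 0.0317), at 29.0 ± 11.2 against 5.21 ± 2.36 CPM. All 6 fibroblast markers rose in fast-growing PNs versus controls (median 1.42), whereas edgeR called 0 in all PNs (4 at an unadjusted p under 0.05, with DESeq2 calling 2 and limma 0) and 0 in slow-growing PNs (0 unadjusted, and 0 by DESeq2 and limma). Macrophage markers gave 0 calls by edgeR, DESeq2, and limma in fast-growing PNs versus controls (0 at an unadjusted edgeR p under 0.05). There 2 of 5 endothelial markers fell, against 1 in all and 1 in slow-growing PNs versus controls. Of 12 muscle markers 7 fell in PNs versus controls and 10 across the fast-growing PNs, and of 10 fat markers 2 and 10. For all PNs versus controls DESeq2 called 9 muscle and 2 fat markers, and limma 9 and 8. In slow-growing PNs versus controls edgeR called 0 muscle markers (3 at an unadjusted p under 0.05, with 0 by DESeq2 and limma) and 1 fat marker, which fell. The part of SC, muscle, and fat content in the levels of *Sprr1a* and *Gadd45a* was not tested beyond the covariate values given beside them. Versus controls the muscle and fat covariate values cannot measure that part, since both scores separated the groups.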

How the data were processed

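The authors amplified total RNA of frozen tissue (Ovation RNA-Seq System v2), aligned reads to mm10 with TopHat2, and deposited whole-number read counts per gene from featureCounts. Whether reads were counted by strand, and the sex and batch of each library, are not given in the sources used here. A second deposited table of log2 values was not used here. All 14 count columns matched a library label, leaving 0 without a sample.

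Groups followed the labels, with the libraries of each comparison alone in its fit. Genes kept by filterByExpr were tested by edgeR 4.0.16 (R 4.3.3) with TMM scaling, the quasi-likelihood test, and Benjamini-Hochberg adjustment over all genes tested, and called at an adjusted p under 0.05. Intervals are 95%. Levels are CPM after TMM scaling, and scores are means of log2(CPM + 1). Reads copied by amplification do not count molecules independently, so floors of 3 counts cover counting error only, and depth limits the lowest levels. Alternatives were limma 3.58.1, DESeq2 1.42.0, other scaling and filtering, a fit over all groups, covariates, and leaving out each library. The fit was also run on simulated data, and no result given here rests on that run. Loci come from GENCODE vM21, and upstream bases, cut where they meet annotated exons, from RefSeq. Correlations with the neuron score used 100000 permutations, two-sided.

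The members and all lists were chosen with earlier results of these data known. All 9 members are named. From each other list the rule took up to 4 genes with the lowest p in PNs versus controls, and up to 4 more called between fast- and slow-growing PNs. As genes of like pattern it took the 3 with the highest correlation of residuals from the group means. *E230016M11Rik*, *Olig1*, the 8 keratinocyte markers, *Sprr1b*, and *Sprr2a1* were added after their values were seen.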

Additional observations from a re-analysis of the deposited data

Results flagged for a closer look

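In 30 groups the highest and lowest library were compared with the rest, a check that chance trips in about 1 in 20 groups. Each group held the 5 slow-growing or the 6 fast-growing PNs. *Gadd45a* in slow-growing PN 1203 was far above the other 4 slow-growing PNs, at 14.2 CPM. The sensory neuron score of fast-growing PN 1191 was far below the other 5, at 1.72. The skeletal muscle score of fast-growing PN 1071 was far above the other 5, at 7.22.

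For 4 of the list genes the edgeR test found a difference between the growth groups, fast- against slow-growing, with log2 fold changes of -1.57 for *Mme*, 1.18 for *Marcks*, 2.47 for *Gfap*, and 2.82 for *Gdnf*. Of these, *Mme*, *Marcks*, and *Gdnf* were not called by limma.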

How the results depend on the processing

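No paired analysis was possible because the groups share no replicate number. Of the alternative values for the members' log2 fold changes, 427 kept their direction and side of the threshold, 29 reversed, 9 passed it newly, and 23 no longer passed. Calls among members for PNs versus controls went from 1 to 0 with no filter, limma, muscle and fat scores as covariates (0 at an unadjusted p under 0.05 in edgeR), and the neuron score as covariate without 1191, and were 0 to 1 leaving out single libraries. For fast-growing PNs versus controls they went from 2 to 1 with limma and 0 with muscle and fat scores (0 unadjusted), and were 1 to 3 leaving out single libraries. Between growth groups they went from 0 to 1 with DESeq2 or the neuron score and to 3 with the neuron score without 1191, and were 0 to 1 leaving out single libraries. Over all genes, calls with muscle and fat scores were 525, 0, 0, and 0 in PNs, slow-growing, and fast-growing PNs versus controls and between growth groups (3182, 1095, 1314, and 1688 at an unadjusted edgeR p under 0.05). For slow-growing PNs versus controls DESeq2 called 3542 and the fit over all groups 3280. Between growth groups RLE scaling gave 130, DESeq2 1592, limma 34, the fit over all groups 423, the neuron score 449, and the neuron score without 1191 1611. Leaving out single libraries gave 2061 to 4779, 599 to 2454, 3342 to 5247, and 2 to 1194 in the same order.

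Reversals with muscle and fat scores were *Sprr1a* (-3.20), *Npy* (-2.39), and *Gadd45a* (-0.21) in PNs versus controls, *Gadd45a* (-0.66) in slow-growing PNs, *Sprr1a* (-0.16) and *Npy* (-5.16) in fast-growing PNs, and *Atf3* (-0.20) between growth groups. With the neuron score as covariate they were *Gal* (-0.053, and -0.32 without 1191) and *Npy* (-0.013) in PNs versus controls, *Gal* (-0.54) and *Sox11* (-0.42) in slow-growing PNs, and *Gal* (0.23, 0.26 without 1191) and *Gap43* (0.13, 0.11 without 1191) between growth groups. limma reversed *Npy* in all (-0.77) and fast-growing PNs (-0.21) versus controls, and *Gal* (-0.081) and *Gap43* (-0.034) in fast-growing PNs, and the fit over all groups reversed *Npy* in PNs versus controls (-0.41). Leaving out single libraries, ranges crossed 0 for *Npy* in PNs versus controls (-0.41 to 0.74), *Gal* in fast-growing PNs versus controls (-0.043 to 0.59), and, between growth groups, *Atf3* (-0.034 to 0.28), *Gal* (-0.92 to 0.31), and *Sox11* (-0.00058 to 0.97). Correlations with the neuron score crossed 0 for *Atf3* (-0.0079 to 0.457), *Npy* (-0.157 to 0.406, and -0.110 when centered on the growth groups without 1191), and *Gadd45a* (-0.133 to 0.299, and -0.0185 with RLE scaling). For these values the cause was not tested. The neuron score without 1191 and the centering were added after seeing the data. *Vip* and *Ecel1* are limited by depth.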
